A study of Mus musculus with 4 samples.

Results

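In all, 10 genes of sialic acid capping were followed in the brains of control mouse embryos and of embryos with a Cre-driven knockout of Sox4 and Sox11. They are the 6 alpha-2,8 sialyltransferase genes St8sia1 to St8sia6 and the alpha-2,6 sialyltransferase genes St6gal1 and St6gal2. With them are the genes of 2 glycosylated surface proteins, Ncam1 and Cd24a. The 10 genes were chosen from results of the knockout against control comparison described here, and their probe sets were then taken by gene symbol, so the differences between genotypes at these genes are given as a description, with no p-value for any of them. They are read by 26 of the 45037 probe sets that are not array controls.

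Whole brains were taken at embryonic day 14.5 from embryos of a mixed 129SvJ/C57Bl/6J background, and their total RNA was measured on 4 Affymetrix arrays. The 2 controls had Sox4 flox/flox and Sox11 flox/flox alleles and no Cre, which the series text calls wildtype. The 2 knockouts had the same floxed alleles and Brn4::Cre, so that the Cre transgene and the loss of both genes differ together between the groups. The labels do not say in which cells Brn4::Cre acts, whether an array held 1 embryo or a pool, or the sex of the embryos, and the series title names the spinal cord while every sample label names brain. Replicates are labelled biological, and p-values and SEs measure the spread between these arrays only. Each SE is limma's moderated SE, which draws on the spread at other probe sets as well as at its own.

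Sialic acids are sugars that cap the outer ends of glycan chains on proteins and lipids. St8sia2 and St8sia4 encode the polysialyltransferases, which build long alpha-2,8-linked polysialic acid chains, mainly on the neural cell adhesion molecule encoded by Ncam1. Polysialic acid is abundant in the embryonic brain, where it loosens adhesion between cells and accompanies neuron migration and axon outgrowth. The remaining St8sia enzymes add shorter alpha-2,8 chains, several of them on gangliosides, the sialic acid-bearing lipids of nerve cells, while St6gal1 and St6gal2 add a single alpha-2,6-linked sialic acid to galactose. Cd24a encodes a small, heavily glycosylated surface protein of young neurons and blood cells.

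The promoters of the 2 polysialyltransferase genes and of St6gal2 are shown because these genes were among the members with lower signal in the knockout. Each line gives the 250 bases before the RefSeq start of the gene on build GRCm38.p6, written 5′ to 3′ along the gene, with matches to the Sox-type motifs ACAAAG and ACAATG on either strand in capitals.
St8sia2 (chr7:74013683-74013932, minus strand): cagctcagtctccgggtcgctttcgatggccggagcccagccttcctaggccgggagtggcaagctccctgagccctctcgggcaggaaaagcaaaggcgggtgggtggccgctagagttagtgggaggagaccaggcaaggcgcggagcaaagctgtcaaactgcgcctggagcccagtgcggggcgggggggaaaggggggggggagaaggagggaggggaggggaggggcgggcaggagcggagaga
St8sia4 (chr1:95667595-95667844, minus strand): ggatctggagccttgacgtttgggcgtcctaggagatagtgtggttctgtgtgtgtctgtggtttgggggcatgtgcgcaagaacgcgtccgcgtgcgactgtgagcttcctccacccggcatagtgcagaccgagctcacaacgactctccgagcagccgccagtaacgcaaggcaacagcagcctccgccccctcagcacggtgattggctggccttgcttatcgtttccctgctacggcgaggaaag
St6gal2 (chr17:55445132-55445381, plus strand): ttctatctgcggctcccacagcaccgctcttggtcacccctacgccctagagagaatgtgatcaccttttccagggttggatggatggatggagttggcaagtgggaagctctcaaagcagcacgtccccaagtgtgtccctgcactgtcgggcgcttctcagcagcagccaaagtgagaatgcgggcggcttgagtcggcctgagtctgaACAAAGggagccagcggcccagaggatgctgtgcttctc

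The promoter table held windows for 6 of the 10 members, 8 windows in all, and St8sia3, St8sia5, Ncam1 and Cd24a were not matched. Over windows of 300 bases (250 before and 50 after the start), St6gal2 held 1 match, ACAAAG on the gene's own strand at position -39 from the start. St6gal1 has 3 RefSeq windows, of which the first held ACAAAG on the opposite strand at position 14 after the start and the second ACAATG on the opposite strand at position -71. The windows of St8sia1, St8sia2, St8sia4 and St8sia6 held neither motif. Of 32851 windows of the same length over the genome, 18.7% held ACAAAG, 12.6% held ACAATG and 28.6% held either, beside 3 of the 8 member windows with either. A match is a description of letters and not a measured binding site.

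The St8sia2, St8sia4, St6gal1, St6gal2 and Cd24a genes all read lower in the knockout at their brightest probe set, and St8sia1 and Ncam1 did too. St8sia5 read higher, and St8sia3 and St8sia6 were within or near the spread of the arrays. Of the 26 member probe sets, 18 were bright enough to enter the fit over 27022 probe sets, and each of the 10 genes had at least 1. In that fit, with limma on log2(signal + 16) and a threshold of 0.05 for the Benjamini-Hochberg adjusted p, 12 of the 18 lay past the threshold, 11 lower and 1 higher. Over all probe sets in the fit 23.2% were past it, 11.7% higher and 11.6% lower in the knockout. Read at the brightest probe set, 8 of the 10 genes were past it, 7 lower and 1 higher, against 27.3% of 12489 genes, 16.3% higher and 11.0% lower. The 2 groups of arrays did not overlap at 15 of the 18 member probe sets and at 62.9% of all probe sets in the fit. The median log2 difference of the 18 was -0.69 and that of all probe sets in the fit -0.01. As the genes were proposed with this contrast in view, these counts describe the members, and nothing is read from them.

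**Figure D1:**
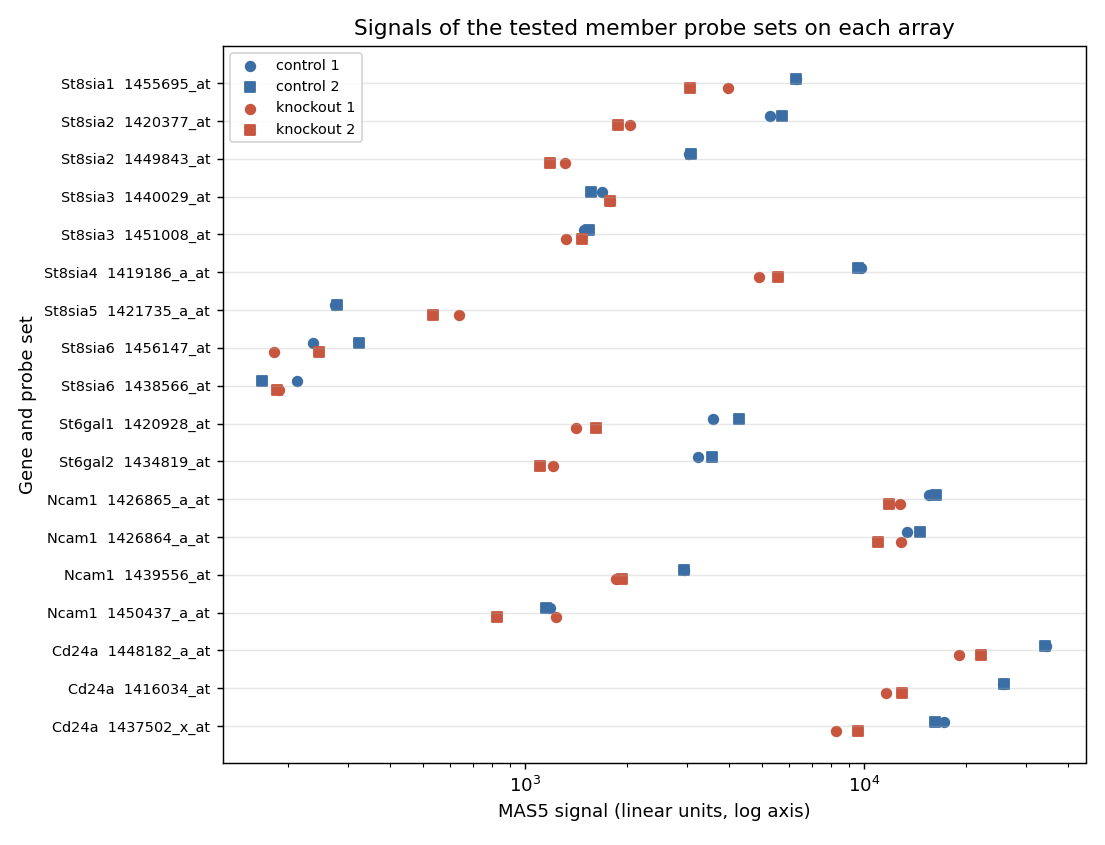
Signal of each tested member probe set on the 2 control arrays (blue) and the 2 knockout arrays (red), on a log axis of linear MAS5 signal; circles are replicate 1 and squares replicate 2, which are not paired. Both knockout arrays lie left of both control arrays at 13 of the 18 probe sets, right of them at 2 (St8sia5 and 1 of the St8sia3 probe sets), and overlap them at 3.

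The polysialyltransferase gene St8sia2 was read by 2 probe sets. At 1420377_at the signal was 5288 and 5716 in the controls and 2041 and 1880 in the knockouts. The knockout arrays were far below both controls, with a log2 difference of -1.48 ± 0.10 (SE, n = 2 each), a fold of 2.79 lower. At 1449843_at it was 3034 and 3078 in the controls and 1307 and 1184 in the knockouts, a log2 difference of -1.29 ± 0.11. Both probe sets of St8sia2 thus read the same direction, and the arrays within each group lay close together compared with the gap between groups.

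St8sia4, the second polysialyltransferase gene, was lower by a smaller amount. Probe set 1419186_a_at read 9791 and 9613 in the controls and 4905 and 5574 in the knockouts, a log2 difference of -0.89 ± 0.09 (SE, n = 2 each; 1.85-fold lower). Its other probe set, 1430391_a_at, was below the brightness filter, with 198.8 and 103.5 in the controls and 78.3 and 92.2 in the knockouts. There too the knockout arrays were the lower ones, but the 2 controls differed from each other by more than the lower control differed from either knockout.

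Ncam1, which encodes the main carrier of polysialic acid, has many splice forms, and its 7 probe sets did not read alike. At the brightest, 1426865_a_at, the signal was 15576 and 16261 in the controls and 12725 and 11851 in the knockouts, a log2 difference of -0.37 ± 0.07 (SE, n = 2 each). At 1439556_at it was 2939 and 2932 against 1850 and 1933, a log2 difference of -0.63 ± 0.10. The groups did not overlap at either.

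The remaining Ncam1 probe sets showed smaller differences or were dim. At 1426864_a_at the signal was 13344 and 14579 in the controls and 12833 and 11011 in the knockouts (log2 difference -0.23 ± 0.09), with no overlap between the groups. At 1450437_a_at it was 1184 and 1152 against 1231 and 823.1 (-0.21 ± 0.18), so that the knockout arrays lay on either side of the controls. The 3 dim ones, 1450438_at, 1425126_at and 1421966_at, had log2 differences of 0.00, 0.23 and -0.15. Which splice form each probe set reads was not used here.

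Cd24a read lower at all 3 of its probe sets. At 1416034_at the signal was 25674 and 25788 in the controls and 11586 and 12933 in the knockouts, a log2 difference of -1.07 ± 0.07 (SE, n = 2 each; 2.10-fold lower). At the brightest, 1448182_a_at, it was 34435 and 34045 against 18971 and 22027, a log2 difference of -0.74 ± 0.07. At 1437502_x_at it was 17179 and 16129 against 8255 and 9584 (-0.90 ± 0.08), and the x in this identifier marks probes that can bind related transcripts as well. The 2 control arrays were nearly equal at the first 2 of these, and knockout 1 was the lowest array at each of the 3.

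The alpha-2,6 sialyltransferase genes had 2 of the 3 largest negative differences among the brightest probe sets of the members. St6gal2, whose enzyme is found largely in brain, read 3244 and 3562 in the controls and 1206 and 1109 in the knockouts at its only probe set, 1434819_at. That is a log2 difference of -1.54 ± 0.11 (SE, n = 2 each; 2.91-fold lower), the most negative of the 18 member probe sets in the fit. St6gal1, the broadly expressed enzyme of the pair, read 3591 and 4259 in the controls and 1410 and 1615 in the knockouts at 1420928_at, a log2 difference of -1.36 ± 0.12. Its dim probe set 1420927_at read 142.6 and 136.2 against 109.8 and 72.7. Control and knockout arrays did not overlap at any of these 3 probe sets.

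The other alpha-2,8 sialyltransferase genes moved in different directions. St8sia1 encodes GD3 synthase, which adds the second sialic acid to the ganglioside GM3. It read 6303 and 6283 in the controls and 3958 and 3067 in the knockouts at 1455695_at, a log2 difference of -0.85 ± 0.12 (SE, n = 2 each). The controls agreed closely, while the knockouts lay well below them and further apart. Its other probe sets, 1419694_at and 1419695_at, were below the brightness filter and overlapped between groups, with log2 differences of -0.07 and -0.06.

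St8sia5, another alpha-2,8 sialyltransferase gene whose enzyme acts on gangliosides, had the largest positive difference of the members. Its probe set 1421735_a_at read 274.2 and 278.8 in the controls and 636.1 and 536.2 in the knockouts, a log2 difference of 1.04 ± 0.18 (SE, n = 2 each; 2.05-fold higher). Both knockout arrays were above both controls, with a difference of 0.92 when knockout 1 was left out.

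St8sia3, an alpha-2,8 sialyltransferase gene of brain, had 2 probe sets with differences of opposite sign. At 1440029_at the signal was 1690 and 1559 in the controls and 1777 and 1780 in the knockouts (log2 difference 0.13 ± 0.11). At 1451008_at it was 1486 and 1540 against 1320 and 1473 (-0.12 ± 0.12). Each difference was about the size of its SE. The groups did not overlap at either probe set, as at 62.9% of all probe sets in the fit.

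St8sia6, the last of the family, was dim. Its brightest probe set 1456147_at read 236.0 and 324.1 in the controls and 181.4 and 245.7 in the knockouts (log2 difference -0.37 ± 0.26), and 1438566_at read 212.8 and 167.4 against 188.3 and 185.3 (-0.01 ± 0.26). The groups overlapped at both, and the SE leaves room for sizeable differences in either direction. The third, 1456440_s_at, was below the brightness filter with a log2 difference of -0.42.

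**Figure D2:**
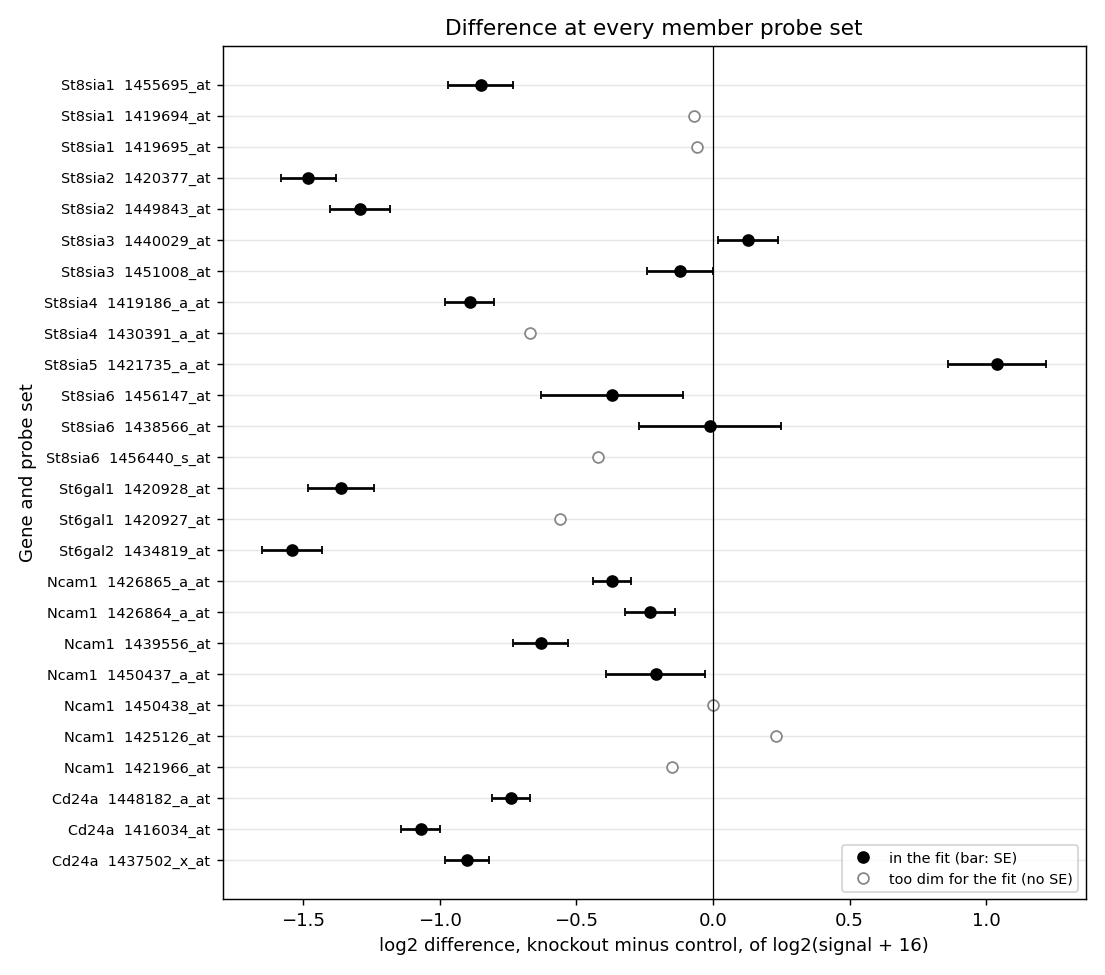
log2 difference (knockout minus control, of log2(signal + 16)) at all 26 member probe sets, with the SE for the 18 in the fit; filled points are in the fit and open ones were too dim for it. The filled points run from -1.54 at St6gal2 to 1.04 at St8sia5, with St8sia3 at 0.13 the only other one above 0.

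The brightness filter kept probe sets with a mean log2 value above 7.41. The dimmest member kept was the St8sia6 probe set 1438566_at with a mean of 7.67, and the brightest one left out was the Ncam1 probe set 1450438_at with a mean of 7.39. Among the 8 member probe sets left out, signals ran from 11.2 to 198.8 and log2 differences from -0.67 to 0.23.

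Leaving out each array in turn moved the differences by little compared with their size at most of these genes. The St8sia2 difference at 1420377_at ran from -1.54 to -1.42, that of St6gal2 from -1.61 to -1.48, that of St6gal1 from -1.49 to -1.24 and that of St8sia4 from -0.98 to -0.80. For St8sia1, whose knockout arrays lay apart, it was -1.03 without knockout 1 and -0.67 without knockout 2. The St8sia6 probe set 1456147_at ranged from -0.58 without control 1 to -0.15 without control 2. At the Ncam1 probe set 1426864_a_at it was -0.34 without knockout 1 and -0.12 without knockout 2. The Ncam1 probe set 1450437_a_at changed sign without knockout 2 (0.08, against -0.50 without knockout 1). The St8sia6 probe set 1438566_at, near 0 with all arrays, read 0.15 without control 1 and -0.17 without control 2. The St8sia3 differences ran from 0.07 to 0.19 at 1440029_at and from -0.19 to -0.04 at 1451008_at.

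**Figure D3:**
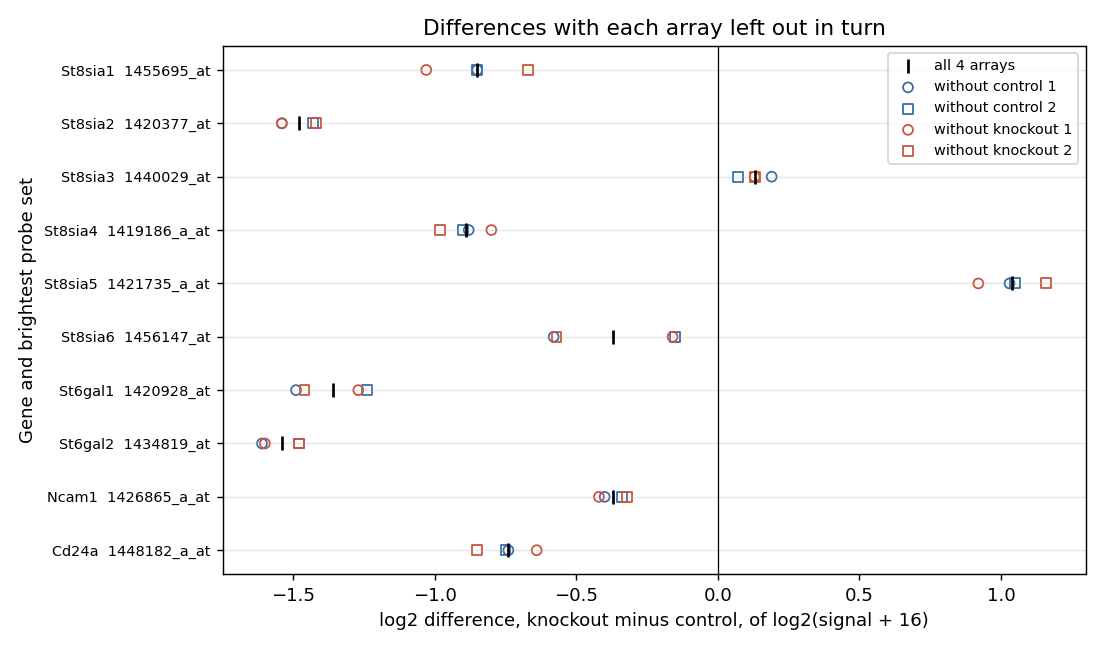
log2 difference (knockout minus control) at the brightest probe set of each of the 10 genes with all 4 arrays (black bar) and with each array left out (blue for a control, red for a knockout). The points of St8sia2, St6gal1 and St6gal2 stay below -1.2 and those of St8sia5 above 0.9, while those of St8sia6 spread from -0.58 to -0.15.

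Several markers of cell types differed between the genotypes alongside these genes. The arrays held strong signals of the neural markers that a brain label implies, and the Sox11 signal fell at its brightest probe set (log2 change -1.38 ± 0.07, limma adjusted p = 2.96e-06), while Sox4 at its brightest did not pass (0.09 ± 0.05, adjusted p = 0.242). The other 5 Sox4 probe sets in the fit did not read alike, since 4 fell, by log2 changes of -2.69 to -1.09, and 1419157_at rose (1.83). Of 8 neuron markers 5 fell and 1 rose (median log2 change -0.35, range -0.75 to 0.62), and their summed signal was 109599 and 113883 in the controls and 92454 and 86575 in the knockouts. Over all probe sets of these 8 markers in the fit, the log2 changes ran from -1.16 at a dimmer probe set of Dcx, the doublecortin gene of young neurons, to 0.62 at Snap25. Among 8 neural progenitor markers 3 rose and 5 did not pass (median 0.15), and of 5 markers of oligodendrocyte precursors, which carry polysialic acid, 1 rose (median 0.28). In whole brain, fewer cells of a type and less RNA per cell cannot be told apart, and the part of neuron number in the lower signals was not tested.

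Microglia and macrophage markers all rose, 9 of 9 in the fit, with a median log2 change of 1.60 and summed signals of 6190 and 6879 in the controls against 22400 and 20223 in the knockouts. Of 7 endothelial markers 4 rose (median 0.42), as did 4 of 7 mesenchymal ones (median 0.39) and 2 of 3 of the choroid plexus (median 0.48). Erythroid markers, of interest because red cell precursors carry CD24, had 0 of 5 past the limma threshold (1 at an unadjusted p under 0.05; median 0.06), with sums of 38109 and 38539 against 40039 and 40698. All 5 lymphoid markers on the array were below the brightness filter, as were 2 of 3 liver markers, and no marker of either list read exactly 0. The part of these cell types in the signal of St8sia5 or of any other member was not tested.

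Most other genes of sialic acid synthesis, transfer, removal and binding, and of further carriers and partners of these proteins, did not pass. Of 43 listed, 42 were on the array, 32 were in the fit, and 5 of these passed, 2 higher and 3 lower, which is 15.6% against 27.3% of all genes. All 5 were among the 22 genes of enzymes, donor transport and the ganglioside core, of which they are 22.7%. The median log2 change of all 32 genes in the fit was 0.02. B4galnt1, the synthase that turns GM3 and GD3 into the next gangliosides, fell from 731.4 and 792.4 in the controls to 411.8 and 374.0 in the knockouts (log2 change -0.93 ± 0.16, SE, n = 2 each; limma adjusted p = 0.0025).

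In all, 5 genes make and deliver the activated donor, CMP-sialic acid, and 1 of them passed. Gne, the first enzyme of sialic acid synthesis, fell from 730.7 and 978.2 to 576.9 and 597.8 (log2 change -0.51 ± 0.17; limma adjusted p = 0.0489), and its second probe set read the other way (0.18). Nans, the sialic acid synthase, did not pass (-0.27 ± 0.13, adjusted p = 0.176) and was past the threshold at its dimmer probe set, 1417774_at (-0.55, adjusted p = 0.0226). Cmas, which activates sialic acid, read -0.10 ± 0.08 and Slc35a1, which carries the donor into the Golgi, -0.10 ± 0.11. Nanp, a phosphatase of the same route, read 0.17 ± 0.11.

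Of the 5 measured alpha-2,3 sialyltransferase genes 0 passed in limma (1 at an unadjusted p under 0.05), with log2 changes from -0.03 for St3gal4 to 0.46 for St3gal6. A dimmer St3gal6 probe set, 1449078_at, was past the threshold (0.77, adjusted p = 0.0413). Of 5 GalNAc alpha-2,6 sialyltransferase genes, St6galnac4 rose from 431.0 and 358.3 to 631.9 and 620.5 (log2 change 0.65 ± 0.17, adjusted p = 0.0197), and its dimmer probe set 1418074_at did not pass (0.24, adjusted p = 0.506). St6galnac3 fell from 717.9 and 783.5 to 522.8 and 535.7 (-0.49 ± 0.15, adjusted p = 0.0368), and its second probe set in the fit, 1420903_at, overlapped between groups (0.07, adjusted p = 0.806). St6galnac1, St6galnac5 and St6galnac6 did not pass (-0.35, 0.05 and 0.10).

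Among genes that remove or break down sialic acid, Npl, the sialic acid lyase, rose from 871.1 and 645.2 to 1321 and 1022 (log2 change 0.62 ± 0.18; limma adjusted p = 0.0293), and Neu1, the lysosomal sialidase, read 0.00 ± 0.17. Neu2 and Neu3 were too dim for the fit. Of the 5 ganglioside core genes, B4galnt1 alone passed, and Ugcg, B4galt5, B4galt6 and B3galt4 read 0.12, -0.10, 0.21 and 0.39.

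The other proteins known to carry polysialic acid or to bind NCAM or CD24 gave 0 of 7 past the threshold in limma (3 at an unadjusted p under 0.05), with a median log2 change of 0.01. Cadm1 (SynCAM 1), a further carrier of polysialic acid, read 11112 and 11332 in the controls and 11630 and 11355 in the knockouts (0.03 ± 0.07, adjusted p = 0.757). Nrp2, a semaphorin receptor that can be polysialylated, did not pass at the brightest of its probe sets (0.23 ± 0.09, adjusted p = 0.0901), and a dimmer one, 1447343_at, was past the threshold in the other direction (-0.66, adjusted p = 0.0195). Ncam2, the paralog of Ncam1, did not pass (-0.34 ± 0.15, adjusted p = 0.129), nor did L1cam (-0.11 ± 0.08, adjusted p = 0.336). Of 8 sialic acid-binding lectin genes 3 were bright enough for the fit, Cd22 (-0.25), Cd33 (0.56) and Siglech (0.60), and 0 passed in limma (1 at an unadjusted p under 0.05).

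The calls of 4 of the 5 pathway genes depended on the arrays used and on the settings. Gne, St6galnac4 and Npl each failed to pass with control 2, knockout 1 or knockout 2 left out (log2 changes of -0.54 to -0.31, 0.52 to 0.66 and 0.41 to 0.80), and St6galnac3 with any of the 4 (-0.55 to -0.43). B4galnt1 passed under each of these. The count of pathway genes past the threshold was thus 1 with control 2 or knockout 1 left out, 4 with control 1 left out, and 2 with knockout 2 left out, the second being Ptprz1, a receptor phosphatase that binds NCAM (0.32).

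**Figure D4:**
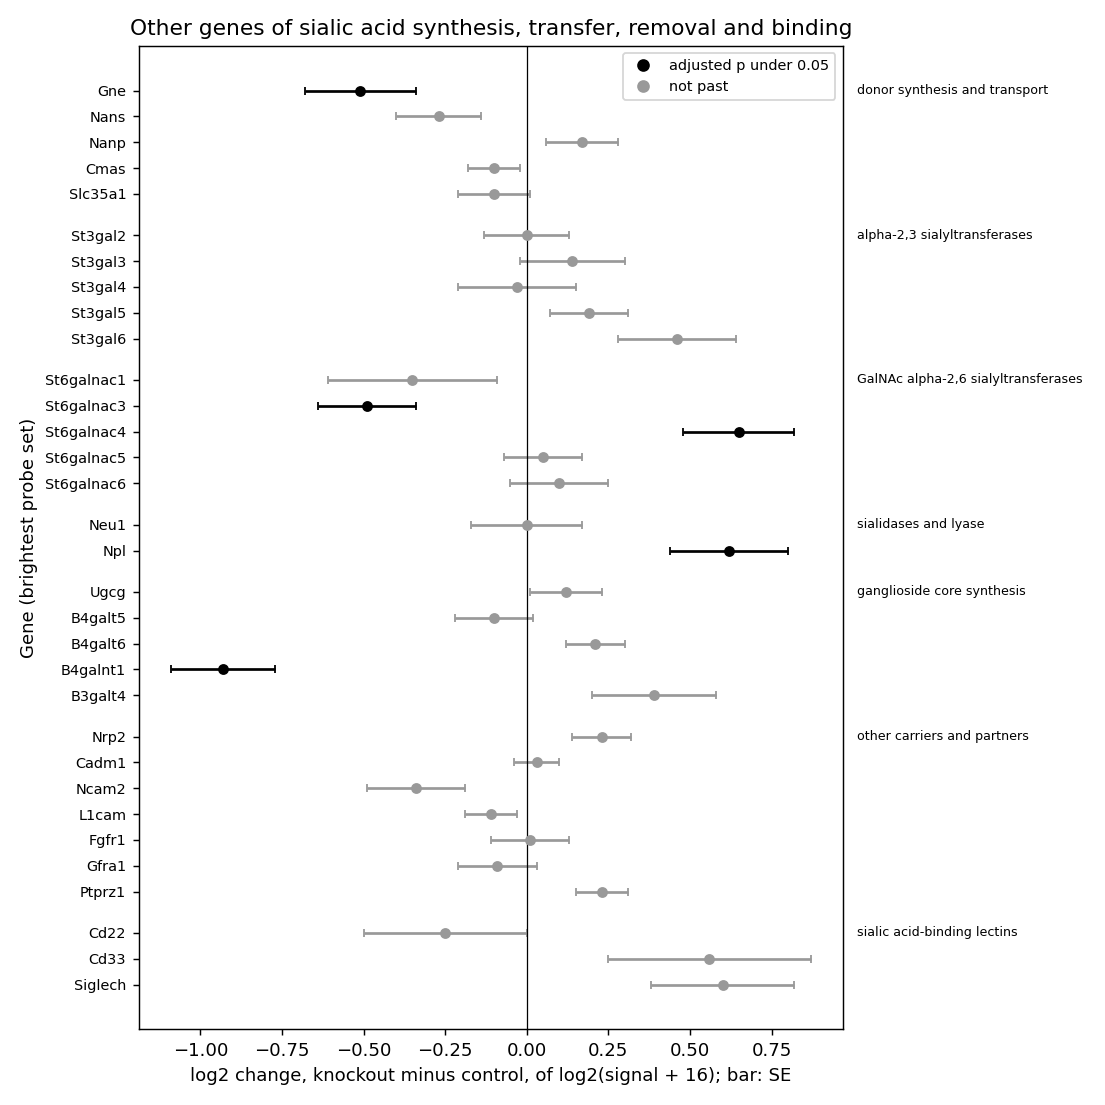
log2 change (knockout minus control, with SE) of the 32 other genes of sialic acid synthesis, transfer, removal and binding, and of further carriers and partners, that were in the fit, each at its brightest probe set and grouped by role as written at the right. The 5 black points passed the adjusted p threshold (Gne, St6galnac3 and B4galnt1 lower, St6galnac4 and Npl higher), and the 27 grey ones did not.

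The genes whose pattern over the 4 arrays lay nearest to that of a member were found by the root mean square distance between centred log2 values, over 12479 other genes. For St6gal2 the nearest was Foxp2, a transcription factor (distance 0.034, log2 change -1.52), followed by Rnf122, Shd, Pcdhb22 and Gpr161, with distances of 0.049 to 0.083. For St8sia5 the nearest were Grn, which encodes progranulin (distance 0.025, log2 change 1.01), Focad, Smoc1, Ctsd, the lysosomal protease cathepsin D, and Dusp3, at up to 0.043. With 4 arrays such closeness is common, since 72 genes lay within 0.1 of St8sia5 and 10 within 0.1 of St6gal2, and it is a description of these arrays only.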

How the data were processed

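Whole-brain RNA of 2 control and 2 knockout samples was hybridised to 1-colour arrays, grouped here by sample title. The authors deposited probe set intensities in linear units, from MAS5 version 5.0 according to the submitters' processing notes, and the genome build was not given in the sources used here. The trimmed mean of each array was 1000.0 and medians ran from 262.6 to 287.6; such scaling removes a shift common to most transcripts.

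Symbols came from the platform annotation (34958 probe sets with 1 symbol, 932 with several, 9211 with none), and members are the probe sets with exactly 1 of the 10 symbols. Signals became log2(signal + 16), which understates changes of dim genes. Probe sets above the 40th percentile of mean log2 signal entered limma 3.58.1 under R 4.3.3 (eBayes with a variance trend, knockout minus control, 2 residual and 8.33 prior degrees of freedom), with Benjamini-Hochberg adjustment over 27022 and a threshold of 0.05. Other genes were read at their brightest probe set.

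The members and lists were chosen with earlier results of these data known. Named genes were all members, pathway genes past the threshold, Sox4 and Sox11, and the 5 nearest patterns of 2 members; other pathway genes and dimmer probe sets were named after their values were seen. The steps were tested on simulated data. Promoters are RefSeq's on GRCm38.p6.

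Alternatives tried were quantile or median scaling, pseudocounts of 1 or 64, filters at the 60th percentile or none, limma without trend or with robust priors, single arrays left out, a replicate block, and averaging the probe sets of a gene.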

Additional observations from a re-analysis of the deposited data

How the results depend on the processing

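The number of arrays limits every value. The number of member probe sets past the threshold stayed at 11 to 13 under the 13 alternatives, against 12 with all settings as reported. St8sia5 was the only higher one, and 0 were higher with the filter at the 60th percentile, which left St8sia5 out of the fit, and 0 to 1 with an array left out (0 without knockout 1). The brightest Ncam1 probe set, 1426865_a_at, was not past the threshold without the variance trend. Among alternatives that kept all 4 arrays, another Ncam1 probe set, 1426864_a_at, was past it only with quantile scaling and with the replicate block. Its log2 difference was -0.34 without knockout 1. The other scalings and pseudocounts moved the log2 differences of members by at most 0.11 (St8sia5, 0.93 with a pseudocount of 64), and 1438566_at of St8sia6 read 0.03 with quantile or median scaling against -0.01. The count over all probe sets was 3114 without the variance trend and 3132 to 5422 with an array left out. The pathway genes past the threshold numbered 1 without the filter (0 higher, 1 lower), 3 without the variance trend (1 of them lower), and 1 to 4 with an array left out (0 to 2 higher, 1 to 2 lower). Without the filter 45037 probe sets were tested, and Gne, St6galnac3, St6galnac4 and Npl did not pass. Without the variance trend Gne, St6galnac3 and Npl did not pass. With quantile scaling 4 pathway genes passed and Gne did not. With median scaling 4 passed and St6galnac3 did not. The causes were not tested. Labels do not say that replicate numbers pair the arrays, and same-numbered arrays did not deviate together (r = 0.00 across probe sets, which are not independent). With the replicate block 6844 probe sets, 13 member probe sets and 6 pathway genes were past the threshold, and Ptprz1 was the pathway gene added.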
